A study of Rattus norvegicus with 12 samples.

Results

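The JAK, STAT and SOCS signalling genes measured here were Jak1, Jak2, Jak3, Stat3, Stat5a, Stat5b, Socs2, Socs3 and Cish. They were taken as all probe sets whose platform symbol was 1 of these names, whatever their signal, which gave 13 probe sets of 9 genes among 8740 probe sets tested and 4736 genes with a symbol. Cultures of mixed glia from neonatal rat brain were kept for 6 to 8 days in a defined medium to which 2% fetal bovine serum was added, and RNA from 12 of them was hybridised to Affymetrix rat genome arrays, 1 array for each culture. There were 3 experiments with different cultures, and each had a control culture that received only additional medium and cultures that received Th1, mono macro (M/M) or Th2 cytokines for 6 hours, each cytokine at 10 ng/ml. The labels name interferon-g, IL-2 and g-CSF together with TNF-a as the Th1 mixture. They give the M/M mixture as IL1a, IL1b, IL-12p40 and TNF-a, to which the study's methods add IL-6. They name porcine TGF-b1, G-CSF, IL-10 and IL-5 as the Th2 mixture, to which the methods add IL-4. The labels give no strain or sex. The question addressed by each comparison is whether RNA of these genes differed after 6 hours in a cytokine mixture from that in the control of the same experiment.

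Janus kinases (JAKs) are tyrosine kinases bound to the inner part of cytokine receptors that lack a kinase of their own. Once a cytokine brings the receptor chains together, the kinases phosphorylate the receptor and then STAT proteins, which pair, enter the nucleus and act as transcription factors. Interferon-gamma acts through Jak1 and Jak2, IL-6 and G-CSF act mainly through Stat3, and IL-2 and IL-5 act mainly through Stat5a and Stat5b. SOCS proteins and Cish are produced in response to STATs and switch the same receptors off, and in astrocytes and microglia the SOCS proteins are known as brakes on interferon-gamma and IL-6 signalling. IL-1 and TNF-alpha act mainly through NF-kappaB rather than through JAKs.

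Cish is a textbook target of Stat5, so its promoter is printed here beside that of Jak2, the gene with the largest log2 fold change of the 9. Both windows run from 250 bases before to 50 bases after the RefSeq start on rat build GRCr8, at chr8:116850719-116851018 on the + strand for Cish and chr1:236408655-236408954 on the + strand for Jak2, and capitals mark each match to TTCNNNGAA, the spaced palindrome that STAT dimers bind.
Cish: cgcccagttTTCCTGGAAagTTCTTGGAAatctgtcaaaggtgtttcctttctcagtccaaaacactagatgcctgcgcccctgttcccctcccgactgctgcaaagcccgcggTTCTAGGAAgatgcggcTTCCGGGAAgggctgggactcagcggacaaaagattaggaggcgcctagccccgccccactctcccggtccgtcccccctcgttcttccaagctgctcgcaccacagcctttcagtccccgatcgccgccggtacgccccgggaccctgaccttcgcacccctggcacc
Jak2: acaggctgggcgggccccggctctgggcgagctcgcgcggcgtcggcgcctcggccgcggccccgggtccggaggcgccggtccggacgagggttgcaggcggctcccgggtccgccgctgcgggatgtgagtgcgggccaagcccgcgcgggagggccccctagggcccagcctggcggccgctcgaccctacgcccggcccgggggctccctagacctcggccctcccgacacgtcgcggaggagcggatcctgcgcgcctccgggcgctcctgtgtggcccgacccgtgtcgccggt
The motif reads the same on both strands, so each match was counted once. The Cish window held 4 matches, which began 241, 230, 136 and 119 bases before the start. The windows of Jak2, Stat3, Stat5a, Stat5b and Socs3 held 0. The Socs3 window, 103694719 to 103695018 on the - strand of chromosome 10, lay inside the span of the gene, 103692579 to 103695975. The bases before the outer end of Socs3 were therefore not searched. Jak1, Jak3 and Socs2 were not among the windows. Of 33469 windows of this length, 2970 (8.87%) held at least 1 match and 2 (0.00598%) held at least 4. A match is a run of letters and no measurement of binding. The genes of Stat5b, Stat5a and Stat3 are neighbours on chromosome 10, at 86205148 to 86276178, 86285859 to 86310187 and 86311528 to 86363513.

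The arrays of experiment 3 differed from the rest in scale and in how they matched their labels. Median signal was 38.4 to 61.0 on the arrays of experiments 1 and 2 and 24.5 to 42.2 on those of experiment 3, and 0 to 3 values per array were below 1 in the former against 167 to 403 in the latter. Because the arrays were not on 1 scale, the main values are also given after each array was centred on its median, written here as centred. The 16 genes of an NF-kappaB response list had median centred log2 ratios to control of 0.00 and 0.29 with Th2 cytokines in experiments 1 and 2 and 2.40 on the array labelled Th2 in experiment 3, and with Th1 cytokines 2.06, 2.02 and 0.20. Tap2, a peptide transporter of antigen presentation that interferon-gamma induces, was 12.2 and 29.7 times control with Th1 cytokines in experiments 1 and 2 and 0.814 times control in experiment 3. The arrays labelled Th1 and Th2 in experiment 3 thus went against their labels on these genes, the groups were kept as labelled, and the main results are given with and without that experiment.

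**Figure D1:**
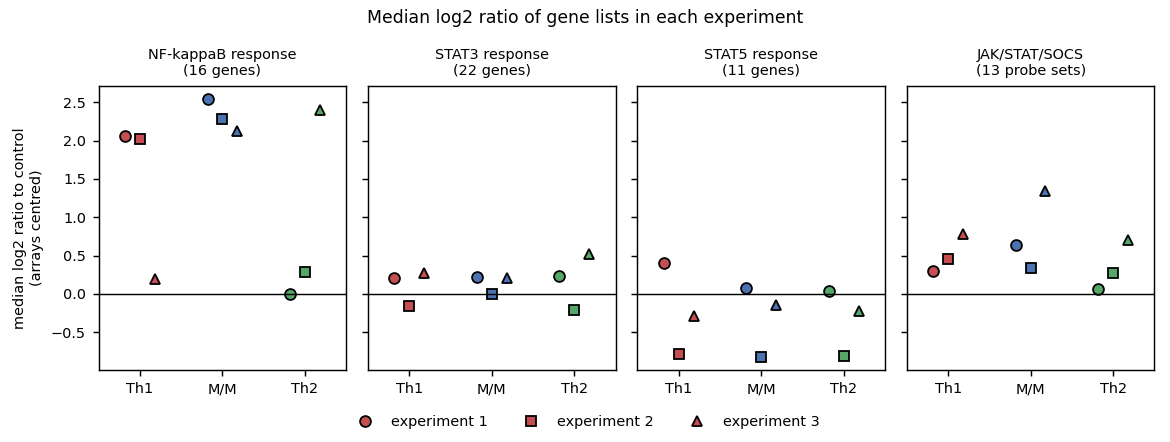
Median log2 ratio to the control of the same experiment (y axis, arrays centred on their medians) for 3 response lists and for the 13 JAK, STAT and SOCS probe sets, by cytokine mixture (x axis and colour) and experiment (circle 1, square 2, triangle 3). The triangle of the NF-kappaB response list lies at 0.20 with Th1 cytokines and at 2.40 with Th2 cytokines, apart from the circles and squares, whereas the JAK, STAT and SOCS probe sets had medians above 0 in every experiment.

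The labelled tissue was checked against its markers. Glul, the glutamine synthetase of astrocytes, had control signals of 3453, 3874 and 1246, and C1qb, a complement subunit of microglia, 2964, 1754 and 1167. Cd3d, a subunit of the T cell receptor, had 3.38, 4.17 and 1.7. In these bulk samples, a change in the share of a cell type and a change in RNA per cell cannot be told apart. The 8 astrocyte markers had a median centred log2 fold change of 0.03 (Th1), -0.10 (M/M) and -0.06 (Th2), and the 10 microglia markers 0.21, 0.01 and 0.22. For the 7 oligodendrocyte markers it was 0.09, -0.23 and -0.01, and with M/M cytokines 0 of the 7 were above 0. Summed signal of the microglia markers was 3037 to 7220 on control arrays, 4691 to 9012 with Th1, 6836 to 10050 with M/M and 5246 to 7648 with Th2 cytokines. This list holds Cd14, which rose with M/M cytokines and is also in the NF-kappaB response list. Without Cd14 the sum of the other 9 was 2672 to 6446 on control arrays, 3952 to 6290 with Th1, 4102 to 6619 with M/M and 3897 to 6707 with Th2 cytokines. The part of these cells in the results was not tested.

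No JAK, STAT or SOCS probe set passed an adjusted p of 0.05 in limma against control, where 0% of all probe sets passed as higher with Th1 cytokines, 0.263% with M/M and 0.0114% with Th2 cytokines. At an unadjusted p under 0.05, 2 of the 13 were higher for the Th1 mixture, 9 for M/M and 5 for Th2, beside 4.75%, 15.4% and 6.06% of all probe sets. By the study's screening criteria of more than 2-fold and p under 0.2, 1, 6 and 3 were higher, beside 1.99%, 6.35% and 2.87%. The median log2 fold change of the 13 was 0.71 (Th1), 1.34 (M/M) and 0.56 (Th2), against 0.14, 0.33 and 0.19 over all probe sets. With arrays centred it was 0.55, 0.91 and 0.35, against -0.02, -0.10 and -0.03. The centred median of the 13 in experiments 1, 2 and 3 was 0.29, 0.45 and 0.78 with Th1 cytokines, 0.64, 0.34 and 1.34 with M/M cytokines, and 0.06, 0.28 and 0.70 with Th2 cytokines. The value of experiment 3 was thus the highest of the 3 for each mixture.

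The direction was often the same in all experiments. With Th1 cytokines 9 of the 13 probe sets were above control in 3 of 3 experiments, where 14.0% of all probe sets were, and with arrays centred 7 were, against 11.2%. With M/M cytokines it was 11, against 32.0%, and 8 with arrays centred, against 13.5%. With Th2 cytokines it was 8, against 2181 of 8740 probe sets (25%), and 6 with arrays centred, against 14.9%. A stricter view asks that the lowest treated array lie above the highest control array, which held for 0 of the 13 (Th1), 6 (M/M) and 1 (Th2), where 1.54%, 7.48% and 2.77% of all probe sets did so. The 6 with M/M cytokines were 2 probe sets of Jak2 and 1 each of Stat3, Stat5a, Socs3 and Cish, and the 1 with Th2 cytokines was Stat3.

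**Figure D2:**
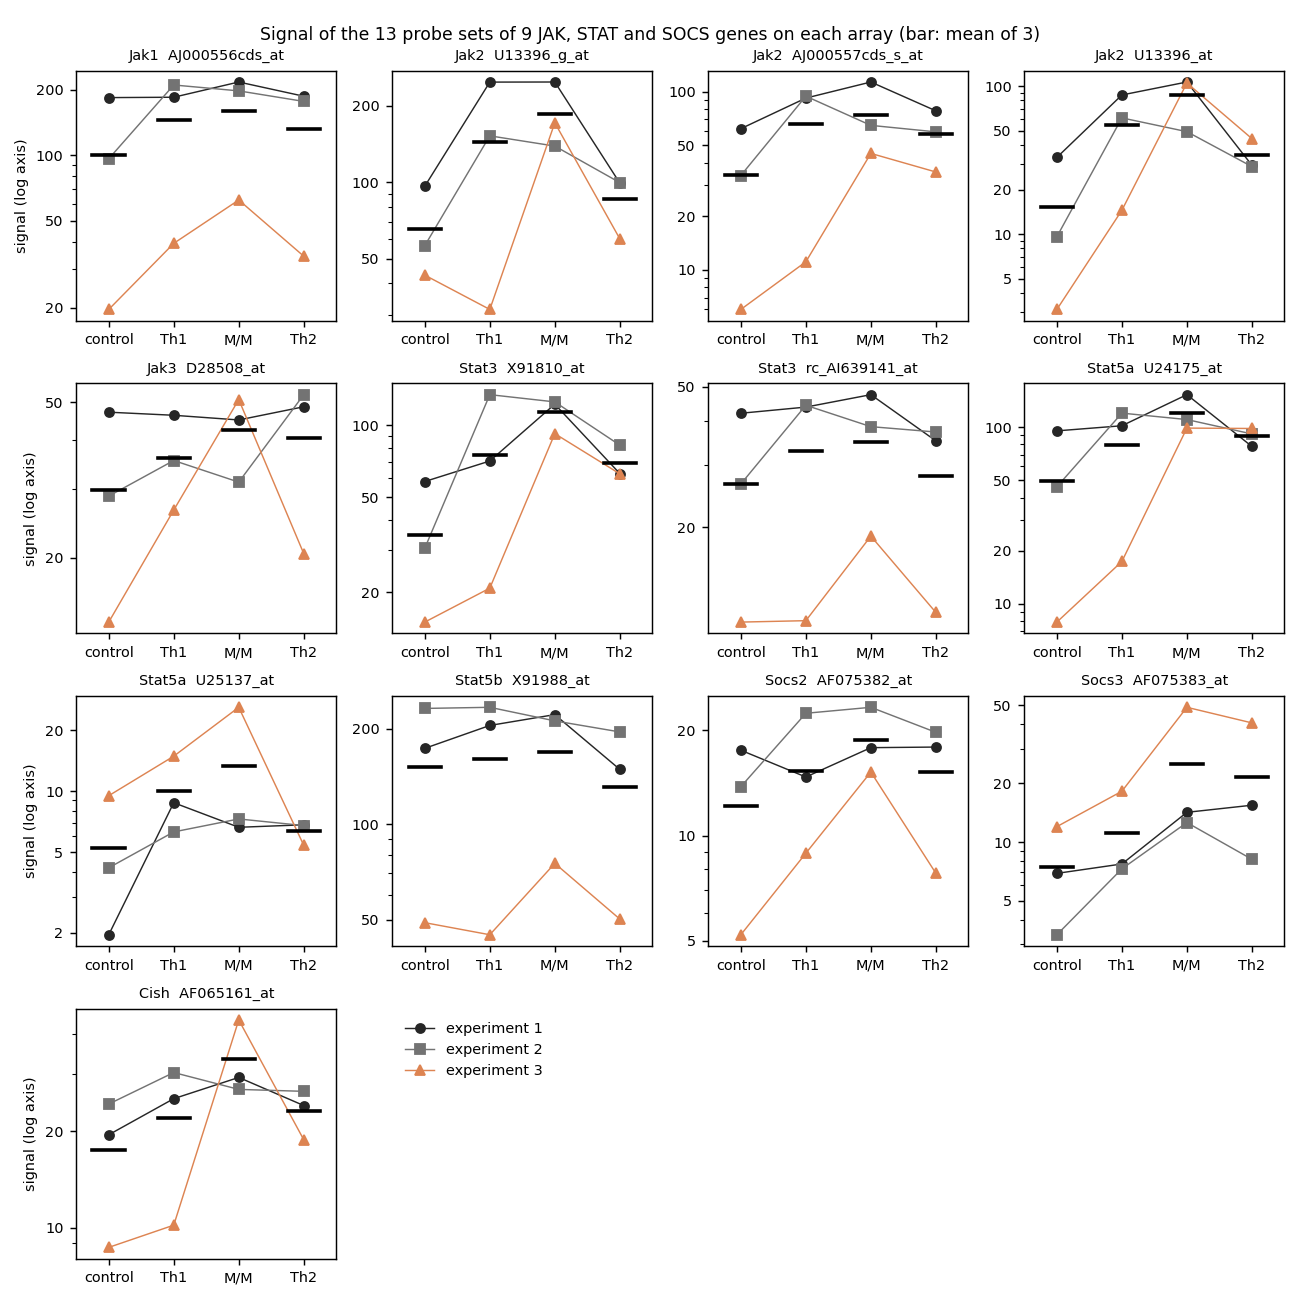
Signal (y axis, log scale) of the 13 probe sets in control, Th1, M/M and Th2 cultures (x axis), with the arrays of each experiment joined by a line and the mean of 3 arrays as a bar. Each of the 13 probe sets had its highest mean with M/M cytokines, where the median log2 fold change over all probe sets was also highest, at 0.33. The experiment 3 line lies lowest for Jak1 and Stat5b, among others, and highest for Socs3.

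Among the kinases, Jak2 showed the largest fold changes. Jak2 is the kinase of the interferon-gamma receptor and of the receptors for growth hormone and erythropoietin. Its probe set U13396_at had control signals of 33.0, 9.61 and 3.1 in experiments 1, 2 and 3. The signals were 87.1, 61.0 and 14.5 with Th1 cytokines. They were 107, 49.2 and 105 with M/M cytokines and 29.2, 28.6 and 44.2 with Th2 cytokines. All M/M arrays lay above all control arrays, the Th1 array of experiment 3 lay below the control of experiment 1, and with Th2 cytokines experiment 1 was slightly below its control. The log2 fold change was 3.04 ± 0.67 (SE, n = 3) with M/M cytokines, with a limma adjusted p of 0.075 and a 95% interval of 1.60 to 4.49. It was 2.10 ± 0.67 with Th1 cytokines (limma adjusted p 0.857) and 1.74 ± 0.67 with Th2 cytokines (limma adjusted p 0.715). Without experiment 3 these were 2.02, 2.03 and 0.70, so that the M/M and Th1 values lay side by side and the Th2 value was lower. The ratio to control with M/M cytokines was 3.23 and 5.12 in experiments 1 and 2 and 33.9 in experiment 3, whose control signal of 3.1 was the lowest of the 12.

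The second probe set of the same Jak2 accession, U13396_g_at, was the brightest of the gene and is not independent of the first. Its control signals were 96.4, 56.3 and 43.1, against 248, 139 and 171 with M/M cytokines. With Th1 cytokines they were 247, 152 and 31.6, so that the array labelled Th1 in experiment 3 was below its control while those of experiments 1 and 2 were 2.57 and 2.70 times theirs. With Th2 cytokines they were 99.2, 99.6 and 59.9, which overlapped the control arrays. The log2 fold change was 1.55 ± 0.43 with M/M cytokines (limma adjusted p 0.145), 0.78 ± 0.43 with Th1 cytokines (limma adjusted p 0.857) and 0.45 ± 0.43 with Th2 cytokines (limma adjusted p 0.821). Without experiment 3 the Th1 value was 1.40 and the M/M value 1.33. When the array labelled Th1 in experiment 3 alone was left out, the Th1 value was 1.48 with a limma adjusted p of 0.0461. In that setting 82 of all probe sets passed with Th1 cytokines, and it was the only 1 of 26 alternatives in which this Th1 value passed. The third Jak2 probe set, AJ000557cds_s_at, had control signals of 61.9, 33.8 and 6.0 and M/M signals of 113, 64.6 and 45.0, which overlap between experiments. Its log2 fold change was 1.57 with M/M, 0.98 with Th1 and 1.24 with Th2 cytokines, and 0.90, 1.02 and 0.57 without experiment 3. All 3 Jak2 probe sets thus had a positive log2 fold change with every mixture.

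Jak1, the kinase shared by the interferon, IL-6 and IL-2 receptor families, had control signals of 184, 96.4 and 19.6. The M/M signals were 217, 197 and 62.3, the Th1 signals 185, 210 and 39.4 and the Th2 signals 187, 177 and 34.4. Each treated array was above the control of its own experiment, but in experiment 1 the ratio was only 1.004 (Th1), 1.18 (M/M) and 1.01 (Th2). Its log2 fold change was 0.98 ± 0.29 with M/M cytokines (limma adjusted p 0.173), 0.71 ± 0.29 with Th1 and 0.57 ± 0.29 with Th2 cytokines. With arrays centred and experiment 3 left out, a setting chosen after the data were seen, the values were 0.32, 0.26 and 0.18. Jak3, which works with the common gamma chain of the IL-2 and IL-4 receptors and is found mainly in blood cells, had control signals of 47.2, 28.8 and 13.7 against M/M signals of 45.1, 31.2 and 50.8. Its log2 fold change of 0.65 ± 0.42 with M/M cytokines was 0.03 without experiment 3, so that this value rested on the experiment 3 array.

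Among the transcription factors, Stat3 had the lowest p. Stat3 carries the signals of IL-6, IL-10 and G-CSF and is active in reactive astrocytes. Its brighter probe set, X91810_at, had control signals of 58.1, 30.6 and 15.0. The signals were 123, 125 and 92.2 with M/M cytokines, 70.8, 134 and 20.8 with Th1 cytokines and 62.8, 82.5 and 62.6 with Th2 cytokines. All M/M and all Th2 arrays lay above all control arrays, although the Th2 array of experiment 1 exceeded its own control by a ratio of only 1.08. For this probe set the log2 fold change was 1.91 ± 0.45 with M/M cytokines (limma adjusted p 0.108), 1.2 ± 0.45 with Th2 cytokines (limma adjusted p 0.715) and 0.96 ± 0.45 with Th1 cytokines (limma adjusted p 0.857). Without experiment 3 the values were 1.56 with M/M, 0.77 with Th2 and 1.21 with Th1 cytokines. The other Stat3 probe set, rc_AI639141_at, stayed near its controls of 42.0, 26.5 and 10.8, with 47.5, 38.5 and 18.9 with M/M cytokines, and its log2 fold change was 0.51 with M/M, 0.27 with Th1 and 0.11 with Th2 cytokines. With arrays centred the last became -0.11, so the 2 Stat3 probe sets did not show the same size of change.

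Stat5a and Stat5b are close relatives that carry the signals of IL-2, IL-5, growth hormone and prolactin. The brighter Stat5a probe set, U24175_at, had control signals of 95.3, 46.0 and 7.9 and M/M signals of 153, 110 and 98.8. The Th1 signals were 102, 120 and 17.4 and the Th2 signals 77.8, 91.5 and 98.3. The M/M arrays did not overlap the control arrays, and the array of experiment 3 was 12.5 times its control with M/M and 12.4 times with Th2 cytokines, against ratios of 1.60 and 2.40 with M/M cytokines in experiments 1 and 2. The log2 fold change was 1.86 ± 0.61 with M/M cytokines (limma adjusted p 0.202), 1.45 ± 0.61 with Th2 and 0.87 ± 0.61 with Th1 cytokines, and without experiment 3 it was 0.97, 0.35 and 0.74. The other Stat5a probe set, U25137_at, was dim, with control signals of 1.95, 4.18 and 9.5, and its log2 fold change with M/M cytokines was 1.34 ± 0.56 (limma adjusted p 0.28). Stat5b was the brightest of the 13 probe sets by mean signal and had the smallest log2 fold changes of the 13 with Th1 and M/M cytokines. Its signals were 173, 231 and 49.0 in control cultures, 204, 233 and 44.9 with Th1, 221, 211 and 75.3 with M/M and 149, 195 and 50.3 with Th2 cytokines, and the groups overlapped throughout. Its log2 fold change was 0.04 (Th1), 0.28 (M/M) and -0.14 (Th2), each ± 0.25, and -0.12, -0.15 and -0.36 with arrays centred.

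**Figure D3:**
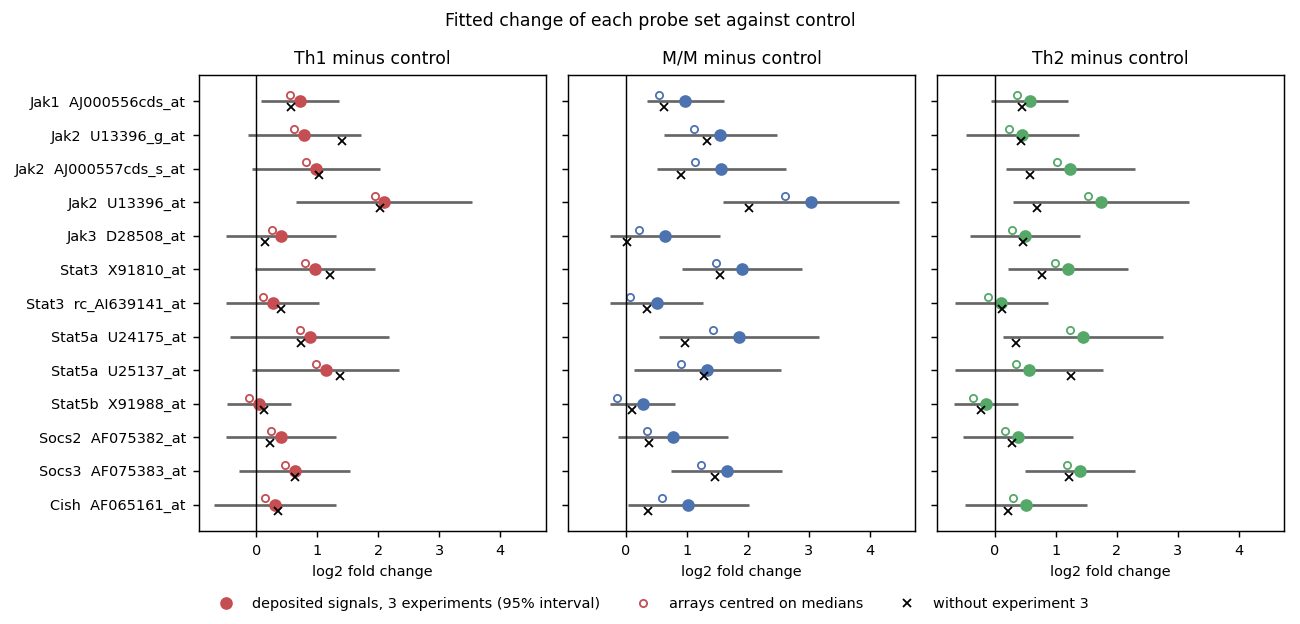
Log2 fold change against control (x axis) of each probe set (y axis) for the 3 mixtures, as filled points with 95% intervals from limma, with open points for centred arrays and crosses without experiment 3. The highest point is Jak2 U13396_at with M/M cytokines at 3.04, whose cross lies at 2.02, and Stat5b lies near 0 in each panel.

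Among the inhibitors, Socs3 and Cish were each higher in every treated culture than in its control, and with arrays centred this held in 9 of 9 for Socs3 but not for Cish, whose values in experiment 2 were below 0 with each mixture. Socs3 binds the gp130 chain and the G-CSF receptor and blocks the kinases there. Its control signals were 6.92, 3.36 and 12.0. They were 14.2, 12.6 and 48.9 with M/M cytokines, 15.4, 8.17 and 40.7 with Th2 cytokines and 7.73, 7.3 and 18.2 with Th1 cytokines. The M/M arrays lay above all controls, while the Th2 array of experiment 2 and the Th1 arrays of experiments 1 and 2 lay below the highest control. The ratios to control were 2.05, 3.75 and 4.08 with M/M cytokines, 2.23, 2.43 and 3.39 with Th2 cytokines and 1.12, 2.17 and 1.52 with Th1 cytokines. In limma the log2 fold change was 1.66 ± 0.42 with M/M cytokines (limma adjusted p 0.122), 1.40 ± 0.42 with Th2 cytokines (limma adjusted p 0.642) and 0.63 ± 0.42 with Th1 cytokines (limma adjusted p 0.857). Without experiment 3 these were 1.47, 1.22 and 0.64, each within 1 SE of the value over 3 experiments. The signals of Socs3 were low, at percentile 28.2 of all probe sets by mean signal.

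Cish blocks Stat5 binding at receptors. It had control signals of 19.5, 24.3 and 8.7, with M/M signals of 29.4, 27.0 and 44.3, and these groups did not overlap. Its ratio to control with M/M cytokines was 1.51 and 1.11 in experiments 1 and 2 and 5.09 in experiment 3. For Cish the log2 fold change was 1.03 ± 0.46 with M/M cytokines (limma adjusted p 0.302), 0.31 with Th1 and 0.51 with Th2 cytokines, and the M/M value was 0.37 without experiment 3. Socs2, a brake on growth hormone receptor signalling, had control signals of 17.6, 13.8 and 5.2 and M/M signals of 17.9, 23.3 and 15.2, and its log2 fold change was 0.78 ± 0.42 with M/M (limma adjusted p 0.373), 0.41 with Th1 and 0.38 with Th2 cytokines. Without experiment 3 the Socs2 values were 0.39, 0.22 and 0.27, and its ratio to control with M/M cytokines in experiment 1 was 1.02.

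**Figure D4:**
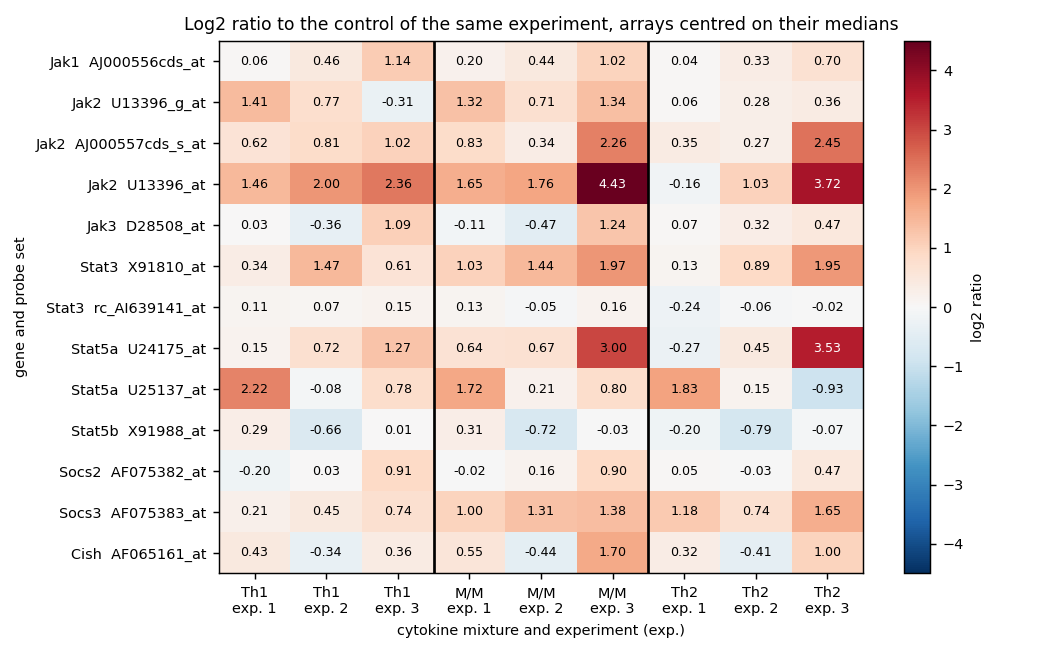
Log2 ratio of each treated array to the control of the same experiment, with arrays centred on their medians, for the 13 probe sets (rows) by mixture and experiment (columns); red is above control and blue below. Socs3, Stat3 X91810_at, Jak1 and Jak2 AJ000557cds_s_at are above 0 in all 9 columns. The highest values, 4.43 and 3.72 for Jak2 U13396_at, stand in the experiment 3 columns of M/M and Th2 cytokines.

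The mixtures were also compared with each other. No JAK, STAT or SOCS probe set passed in limma, and 0% of all probe sets passed as higher for Th1 against M/M, 0% for Th1 against Th2 and 0% for M/M against Th2 cytokines. Among the largest differences, Socs3 was lower with Th1 than with M/M cytokines by a log2 difference of -1.03 (95% interval -1.94 to -0.12, limma adjusted p 0.903), and it was -0.83 without experiment 3. Jak2 U13396_g_at was higher with M/M than with Th2 cytokines by 1.10 (95% interval 0.18 to 2.03, limma adjusted p 0.998), and by 0.90 without experiment 3. The largest difference over 3 experiments was that of Jak2 U13396_at, higher with M/M than with Th2 cytokines by 1.30. Its 95% interval of -0.145 to 2.745 included 0 (limma adjusted p 0.998), and without experiment 3 it was 1.33. Jak2 U13396_at was higher with Th1 than with Th2 cytokines by 0.35 over 3 experiments and by 1.34 without experiment 3 (limma adjusted p 0.819).

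Of the other parts of the pathway, no listed gene passed with any mixture among 15 measured pathway partners, 16 receptors that use JAK kinases, 21 ligands and 11 genes of a STAT5 response list. Of the partners, 14 of 15 had a log2 fold change above 0 with M/M cytokines, with a median of 0.46, where 6830 of all 8740 probe sets were above 0. With arrays centred it was 8 of 15, with a median of 0.03, where 3587 of 8740 were. Ptpn2, a phosphatase that removes phosphate from JAKs and STATs, had 1.18 ± 0.28 with M/M cytokines (limma adjusted p 0.103). Of the receptors, Csf2rb, the common beta chain of the IL-3, IL-5 and GM-CSF receptors, had control signals of 189, 86.7 and 54.7 and M/M signals of 347, 367 and 178. These M/M arrays exceeded their own controls by ratios of 1.84, 4.24 and 3.25, and the log2 fold change was 1.55 ± 0.29 (limma adjusted p 0.0512). Of the ligands, Il6 had control signals of 6.45, 9.87 and 2.0 and M/M signals of 189, 56.2 and 32.1. Its log2 fold change was 3.79 ± 0.79 with M/M cytokines (limma adjusted p 0.0681), 3.32 ± 0.79 with Th2 and 2.45 ± 0.79 with Th1 cytokines, and with Th2 cytokines its ratio to control was 19.1, 0.995 and 52.0 in the 3 experiments.

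Some genes known to follow the STATs passed the test, all of them with M/M cytokines. In the STAT3 response list 3 of 22 measured genes passed as higher with M/M cytokines, where 0.263% of all probe sets did. These were Junb (log2 fold change 2.53, limma adjusted p 0.0251), Cebpb (2.34, limma adjusted p 0.0385) and Timp1 (1.23, limma adjusted p 0.0486). Junb and Cebpb are transcription factors of the early and acute-phase responses, and Timp1 is an inhibitor of metalloproteinases; NF-kappaB and other pathways also induce them. The signal of Junb was 168, 43.0 and 127 in control cultures and 563, 380 and 820 with M/M cytokines. The median log2 fold change of the list was 0.61, against 0.33 over all probe sets. Of its 22 genes 19 were above 0, as were 6830 of all 8740 probe sets. In the NF-kappaB response list 16 of 16 genes were above 0 with M/M cytokines, with a median log2 fold change of 2.61. Of these, 3 passed as higher, and they were Ccl2 (2.74, limma adjusted p 0.015), Sod2 (2.51, limma adjusted p 0.0251) and Cd14 (2.55, limma adjusted p 0.0486). With arrays centred none of these 6 genes passed (limma adjusted p 0.0933 for Junb), while their log2 fold changes were 2.10 for Junb, 1.91 for Cebpb, 0.80 for Timp1, 2.31 for Ccl2, 2.09 for Sod2 and 2.12 for Cd14. Igf1, a growth factor that Stat5 drives in liver, had a log2 fold change of -0.67 (Th1), -0.49 (M/M) and -0.35 (Th2) and did not pass (limma adjusted p 0.778, 0.263 and 0.723).

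The genes whose pattern over the 12 arrays was most like that of Stat3 and Socs3 were listed by Pearson's r. Before this, arrays were centred and the mean of each experiment was removed. The list was drawn from 5395 probe sets with 1 symbol and a mean log2 signal above the lower quartile of all probe sets. The arrays share controls and treatments, so these values are a description. For Stat3 X91810_at they were Ugcg (0.982), Cmtm6 (0.962), Abcb1b (0.955), Txnrd1 (0.952) and Btg1 (0.949). Of the JAK, STAT and SOCS probe sets, Jak2 U13396_at had an r of 0.929 with it, Jak2 AJ000557cds_s_at 0.906 and Stat5a U24175_at 0.899. The brightest Jak2 probe set, U13396_g_at, had 0.723. The other Stat5a probe set, U25137_at, had only 0.033, Jak3 had 0.123 and Stat5b had -0.29. For Socs3 they were Crp (0.959), Hnrnpab (0.937), Pfdn2 (0.917), Egr1 (0.911) and Hivep2 (0.910). Crp stands here for the probe set M13101cds_f_at by its platform symbol, and whether that probe set measures Crp alone was not tested. Socs3 and Stat3 X91810_at had an r of 0.790 with each other.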

How the data were processed

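Probe-set intensity on a linear scale was calculated by the authors with dChip and deposited. Settings of dChip and a normalization between arrays are not given in the sources used here. The table held 8799 probe sets, of which 59 control probe sets were left out and 8740 tested. In the platform annotation 7006 carry 1 symbol, 308 several and 1426 none. Arrays were grouped by the mixture in their titles, and the title code gave the experiment (1 to 3). Signals below 0.1 were set to 0.1, log2 was taken and arrays were not rescaled. The fit was made in limma 3.58.1 under R 4.3.3 over all 12 arrays, and its terms were the group and, as a replicate block, the experiment. Its variance prior followed mean signal, with 6 residual degrees of freedom and 6.94 from the prior. Benjamini-Hochberg adjustment covered the 8740 probe sets, with a threshold of 0.05. The fit was tested on simulated data. The number of arrays limits the precision.

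Experiment pairs the arrays, since the methods describe 3 experiments with different cultures. Deviations from group means correlated at 0.439 to 0.708 in 18 pairs of arrays of 1 experiment and at -0.62 to 0.357 in 36 pairs of different experiment and group. The genes and all gene lists were chosen with earlier results of these data known. All 13 member probe sets were named, and from each other list every gene that passed (up to 8) or else the 2 genes of lowest p for each mixture, of which some are given. Each gene of a list was represented by its brightest probe set. Alternatives changed the scaling, the floor, an offset, the filter on dim probe sets, the variance trend, the block, the arrays fitted and the test. Promoters are RefSeq windows on GRCr8. No promoter window was used for Jak1, Jak3 and Socs2, and probe sequences were not used here. The results of 1 response list are not reported here.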

Additional observations from a re-analysis of the deposited data

How the results depend on the processing

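Of 972 pairs of a member's log2 fold change against control and an alternative setting, 938 kept their direction and side of the threshold, 13 became past the threshold and 21 turned. The count of the 13 member probe sets passing with M/M cytokines, 0 as reported, was 5 when only the M/M and control arrays were fitted with the replicate block (389 of all probe sets then passed, and 1 with Th1 and 13 with Th2 cytokines) and 0 to 3 when arrays were left out. The 3 came without the array labelled Th1 in experiment 3, which also gave the 1 member call with Th1 cytokines (range 0 to 1). In that setting 183 of all probe sets passed with M/M and 82 with Th1 cytokines. With no replicate block, 0 probe sets passed for M/M and for Th2 cytokines, against 23 and 1 as reported, and likewise 0 with arrays centred on their medians, by quantile normalization, with no variance trend and by the methods' analysis of variance after Benjamini-Hochberg. By the latter's criteria of more than 2-fold and p under 0.2, in either direction, 242, 596 and 299 probe sets passed for the Th1, M/M and Th2 mixtures, of them 1, 6 and 3 members. An offset of 16 gave 14 for M/M cytokines. Leaving out arrays gave 0 to 82 for Th1, 0 to 183 for M/M, 0 to 3 for Th2, 0 to 41 for Th1 against Th2 and 0 to 23 for M/M against Th2 cytokines. A setting chosen after seeing the data, arrays centred and experiment 3 left out, gave 120 for Th1, 120 for M/M, 0 for Th2, 9 for Th1 against M/M, 90 for Th1 against Th2 and 52 for M/M against Th2 cytokines, and 0 members.

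In that last setting Jak3 was -0.169 with Th1 and -0.29 with M/M cytokines, Socs2 -0.085 with Th1, Cish -0.047 with Th2, Stat3 rc_AI639141_at -0.149 with Th2 and Stat5b -0.181 with Th1 and -0.205 with M/M cytokines. With arrays centred, Stat3 rc_AI639141_at was -0.106 with Th2 and Stat5b -0.118 with Th1 and -0.147 with M/M cytokines, and by quantile normalization these were -0.143, -0.091 and -0.056. Leaving out arrays moved Stat3 rc_AI639141_at with Th2 cytokines from -0.084 to 0.289, Stat5a U25137_at with Th2 from -0.061 to 1.25 and Stat5b with Th1 from -0.058 to 0.212. The causes were not tested.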
